A study of Mus musculus with 10 samples.

Results

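The genes described here encode the chains of the collagens, taken as every gene of the OP9 table whose symbol has the form Col, a number, a and a number. This rule found 40 of the 26888 genes in the table. OP9 is a mouse stromal line from calvaria, called foetal in the labels and newborn in the study's text, that supports blood stem cell development in culture, and the study used RNA-seq to ask how its transcriptome differs between reaggregates and flat culture. The 10 libraries comprised 6 reaggregates and 4 flat cultures, all of them OP9 cells of the strain (C57BL/6xC3H)F2-op/op. The reaggregates were grown for 48 h on 0.8-μm nitrocellulose filters at the interface of liquid and gas, reaggregates 1, 3 and 5 without IL-3 and reaggregates 2, 4 and 6 with IL-3 at a labelled dose of 200 μg/μl. The flat cultures were kept submersed in medium, and flat cultures 2 and 4 carried the label de Bruijn lab, which flat cultures 1 and 3 did not. Cells for reaggregates had been trypsinised and pelleted, and the finished reaggregates were dissociated with collagenase and dispase before RNA extraction, while the handling of flat cultures at that step is not given in the sources used here. Handling and culture form cannot be told apart in these groups. The labels give no cell source for the reaggregates, so a difference in source cannot be told apart from culture form either.

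Values are RPM, reads on a gene scaled to the library's total on genes, and are not divided by gene length. The commonest value within a low range of RPM was taken as 1 read. That range was set in advance and bounds the depth that could be found. It put depth at 7.35 to 9.43 M reads on genes in reaggregates and 8.26 to 8.70 M in flat cultures (M, mega). A floor of 3 reads therefore corresponded to 0.318 to 0.408 RPM, which covers counting error only. Consecutive reaggregates resembled each other more than other reaggregates did. Over the chains above the expression threshold, libraries differed in log2(RPM + 0.5) by a root mean square of 0.246 to 0.288 between reaggregates 1 and 2, 3 and 4, and 5 and 6, against 0.746 to 1.10 for the other 12 pairs. Nothing in the labels says that the libraries of a group came from separate cultures, so p-values may reflect technical spread, and results are also given with consecutive reaggregates averaged to 3 samples.

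The stromal label was checked against marker genes. *Vim*, *Pdgfra* and *Pdgfrb* were well above the floor in all 10 libraries, with *Vim* the most abundant stromal marker. *Mcam* and *Eng* also exceeded the floor in all 10 but were low, at 1.59 to 9.1 and 1.28 to 4.03 RPM. *Thy1* stayed under the floor in every library. Of the 6 stromal markers, 5 exceeded the floor in at least 1 library, and their summed level, most of it *Vim*, was 5242 to 6093 RPM in reaggregates and 5975, 8331, 7418 and 6249 RPM in flat cultures 1 to 4. *Vim* was lower in every reaggregate, at 4140 to 4830 RPM, than in any flat culture, at 5760 to 7800 RPM. *Pdgfra* and *Pdgfrb* went the other way, at 311 to 446 and 618 to 808 RPM in reaggregates and 89.0 to 160 and 122 to 376 RPM in flat cultures, and their part in the results for collagen chains was not tested. *Ptprc*, which marks blood cells, was 0 in all libraries, and *Cdh5* and *Kdr*, which mark endothelium, were under the floor throughout. *Pecam1* exceeded the floor in 4 libraries, at up to 0.716 RPM, and *Tek* in 2, at up to 0.409 RPM. The endothelial sum was at most 1.03 RPM in any library. Of the 4 blood cell markers, *Spi1* was not matched by symbol, and *Cd34* and *Itga2b* gave sums of 30.05 to 64.0 RPM in reaggregates and 78.9, 0.955, 38.3 and 3.28 RPM across flat cultures 1 to 4. The osteoblast sum, nearly all of it *Runx2*, was 54.1 to 105 RPM in reaggregates and 32.5 to 69.6 RPM in flat cultures, with *Sp7* and *Ibsp* below 1 RPM everywhere.

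Collagens are extracellular proteins in which chains wind around each other into a helical trimer, made either from a single kind of chain or from chains of different genes. The fibrillar types build the load-bearing fibres of bone, skin and cartilage, type IV forms the sheet of basement membranes, and smaller classes decorate fibres, form beaded filaments or span the cell membrane. Stromal and bone-forming cells are known as abundant producers of type I collagen, and newly made chains need hydroxylation, folding, secretion, trimming and crosslinking before they become matrix.

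Reads on collagen chains made up a larger share of reaggregate libraries than of flat cultures. Summed over the 40 chains, the level was 25530, 31781 and 32791 RPM at its lowest, median and highest in the 6 reaggregates. Flat cultures 1 to 4 had 11141, 9788, 22700 and 6327 RPM. All reaggregates exceeded all flat cultures in this sum, and flat culture 3 lay nearest to the reaggregates. The mean share of reads was 3.02% ± 0.301 (SD, n = 6) in reaggregates and 1.25% ± 0.710 (SD, n = 4) in flat cultures, a ratio of 2.42. The fibrillar class took most of these reads, with a mean of 22238 ± 3282 RPM over reaggregates (SD, n = 6) and 7868 ± 5362 RPM over flat cultures (SD, n = 4). Since RNA was taken from whole cultures, more cells of a type and more RNA per cell cannot be told apart in this or any other value given here. The sum describes chains that were chosen with results known and was not tested.

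**Figure D1:**
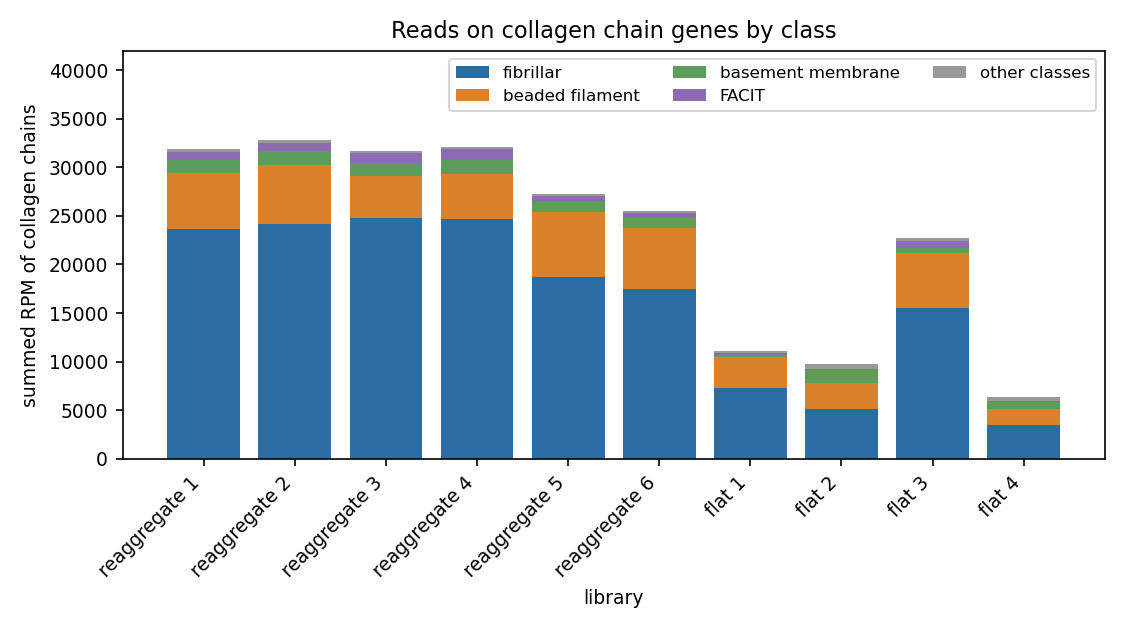
Summed RPM of collagen chain genes (vertical axis, from 0) in each of 10 OP9 libraries (horizontal axis), with the classes stacked in color. The 6 reaggregates lie between 25530 and 32791 RPM and the 4 flat cultures between 6327 and 22700 RPM, and the fibrillar class forms the largest block in every library.

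Of the 40 chains, 34 exceeded 0.5 RPM in at least 1 library and were compared with limma on log2(RPM + 0.5), together with all 16933 genes above that threshold. A gene counted as up- or down-regulated if its fold change reached 2 or more and its p, adjusted by Benjamini-Hochberg over all genes tested, was 0.05 or less. On this scale the change of weakly expressed genes is understated. In reaggregates 15 of the 34 chains were up-regulated, where 7.32% of all genes tested were, and 1 chain was down-regulated, where 6.53% of all genes were. The chains had a median log2 difference of 1.21 (quartiles 0.21 and 1.90), and 27 of 34 were above 0. Over all genes tested the median was 0.04 (quartiles −0.44 and 0.50). Every reaggregate exceeded every flat culture in 10 of the 34 chains, compared with 7.8% of all genes, and lay below every flat culture in 1 chain, compared with 11.4%. Of the 15 up-regulated chains, 8 showed such a separation and 7 overlapped between groups.

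These counts cover only the chains above the threshold, and *Col8a2*, *Col19a1*, *Col23a1* and *Col24a1*, named after their values were seen, passed it in reaggregates alone. Their log2 differences, 0.93, 0.36, 0.20 and 0.83, are among the 27 above 0, and entry through reaggregates favours that sign. *Col8a2* is also among the 10 chains in which every reaggregate exceeded every flat culture, a count that such entry favours too. The other 6 chains, *Col4a3*, *Col4a4*, *Col9a1*, *Col9a2*, *Col13a1* and *Col25a1*, did not pass and were at or near the floor in every library, with 0.409 RPM as their highest value, in *Col4a4*. With consecutive reaggregates averaged, 3 chains were up-regulated, *Col5a2*, *Col11a1* and *Col27a1*, and *Col2a1* was again down-regulated, where 1.84% of all genes were up- and 2.53% down-regulated. The reaggregates without IL-3 alone, and those with IL-3 alone, each gave the same 3 up-regulated chains against the 4 flat cultures, beside 2.04% and 1.64% of all genes. Against flat cultures 1 and 3 alone, 7 chains were up-regulated, of which 5 were among the 15, *Col1a1*, *Col3a1*, *Col4a6*, *Col5a2* and *Col11a1*, and 3.7% of all genes were. Without the expression threshold the count was 9 of 40, where 3.71% of all genes were up-regulated. In that setting 31 of the 40 chains had log2 differences above 0, with a median of 0.98 beside 8.2e-04 for all genes. Only *Col5a2*, *Col11a1* and *Col2a1* were called under all 25 alternative settings and left-out libraries.

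**Figure D2:**
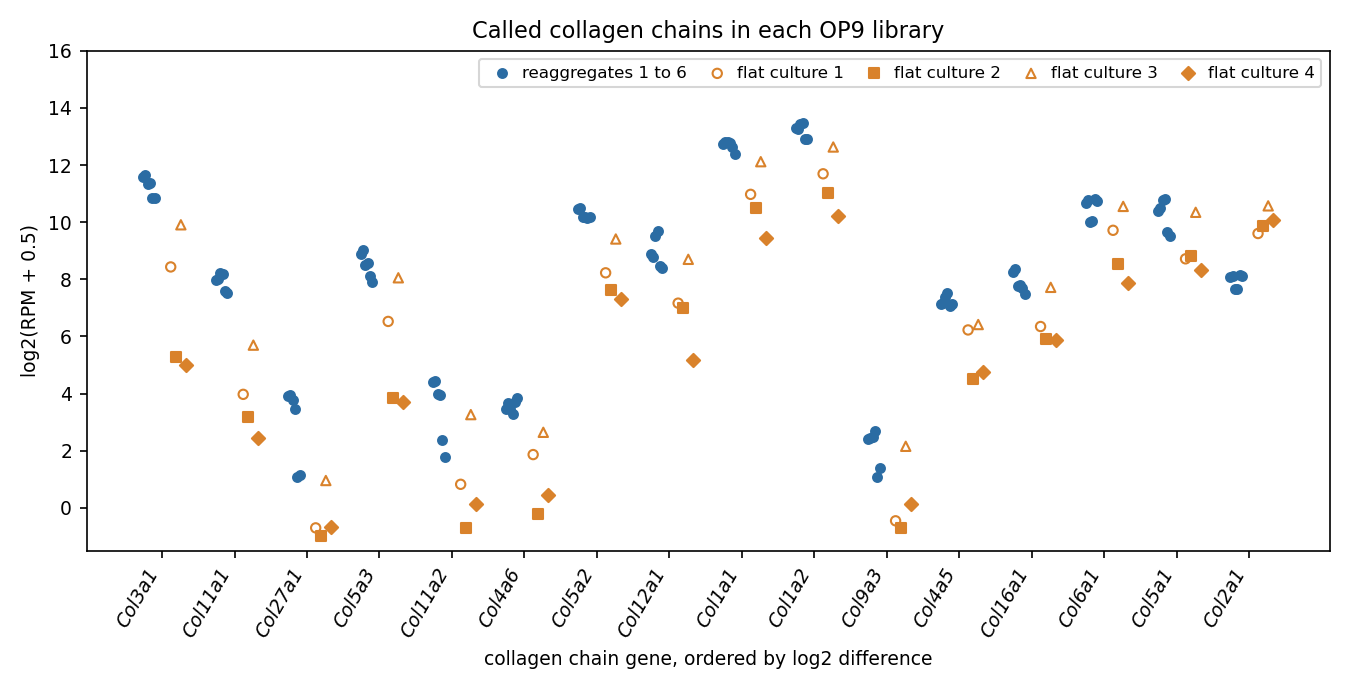
Level of the 16 called collagen chains in each library, as log2(RPM + 0.5) (vertical axis), with genes ordered by their log2 difference (horizontal axis). Filled circles are the 6 reaggregates, open symbols flat cultures 1 and 3, and filled squares and diamonds flat cultures 2 and 4, and each point is 1 library. *Col2a1*, at the right, is the chain in which every reaggregate lies below every flat culture, and flat culture 3 (open triangle) is the highest flat culture in every up-regulated chain.

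The fibrillar class held 9 of the 15 up-regulated chains and the single down-regulated chain, out of 11 chains tested, and its median log2 difference was 2.13. For this and the classes below, the shares of all genes were 7.32% up- and 6.53% down-regulated. Type I collagen, the main protein of bone and tendon, is built from *Col1a1* (chromosome 11, 94797538 to 94814356 in NCBIM37, the build of all coordinates here) and *Col1a2* (chromosome 6, 4454814 to 4491543). *Col1a1* was at 5400, 6875 and 7190 RPM as the lowest, median and highest of the reaggregates and at 2010, 1440, 4440 and 698 RPM in flat cultures 1 to 4. *Col1a2* was at 7610, 9950 and 11300 RPM in reaggregates and at 3310, 2070, 6340 and 1190 RPM in flat cultures. Both genes were higher in each reaggregate than in any flat culture, with flat culture 4 lowest. The log2 difference was 1.93 (SE 0.41, limma adjusted p = 0.00643, n = 6 and 4) for *Col1a1* and 1.83 (SE 0.41, limma adjusted p = 0.00787) for *Col1a2*. Per kb of transcript, the 2 genes also held the highest mean levels among the chains in reaggregates, 1801 ± 302 RPM per kb (SD, n = 6) for *Col1a2* and 1118 ± 113 RPM per kb for *Col1a1*.

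The next levels per kb in reaggregates were those of *Col6a2*, at 506 ± 150 RPM per kb, *Col3a1*, at 454 ± 102 RPM per kb, and *Col6a1*, at 363 ± 85.8 RPM per kb. *Col6a2* was above *Col6a1* in each of the 6 reaggregates and above *Col3a1* in 4 of them. In flat cultures *Col1a2* and *Col1a1* were at 604 ± 421 and 362 ± 273 RPM per kb (SD, n = 4), *Col6a2* at 307 ± 238 RPM per kb and *Col2a1* at 211 ± 62.7 RPM per kb. Within every flat culture *Col1a2* was the highest of these chains, at 619, 387, 1186 and 223 RPM per kb in flat cultures 1 to 4. *Col1a1* exceeded *Col6a2* in 3 of the 4 flat cultures and *Col2a1* in 3, and *Col6a2* exceeded *Col2a1* in 2, so the order of these 3 chains differed between flat cultures. *Col2a1* was at 49.3 ± 7.70 RPM per kb in reaggregates, below all of these chains.

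*Col3a1* (chromosome 1, 45368383 to 45406551), the chain of type III collagen in extensible tissues, was at 1850, 2605 and 3200 RPM in reaggregates and at 345, 38.8, 960 and 31.5 RPM in flat cultures 1 to 4. All reaggregates exceeded all flat cultures, and the flat cultures fell into a higher pair, 1 and 3, and a lower pair, 2 and 4, the ones with the de Bruijn lab label. Its log2 difference was 4.11 (SE 0.81, limma adjusted p = 0.00439), from 2.10 to 6.12 over the alternatives, and with consecutive reaggregates averaged it was no longer called.

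Type V collagen is a minor partner of type I that governs fibre diameter. *Col5a2* (chromosome 1, 45431166 to 45560127) was at 1140, 1155 and 1440 RPM in reaggregates and at 299, 195, 680 and 158 RPM in flat cultures, without overlap, a log2 difference of 2.13 (SE 0.33, limma adjusted p = 0.0013). *Col5a1* (chromosome 2, 27741945 to 27895034) was at 725, 1405 and 1800 RPM in reaggregates and at 420, 455, 1300 and 317 RPM in flat cultures. For *Col5a1* the groups overlapped, since reaggregates 5 and 6 lay below flat culture 3. Its log2 difference was 1.22 (SE 0.40, limma adjusted p = 0.0385), and the call was lost when any of 7 libraries was left out (reaggregates 1 to 4 and flat cultures 1, 2 and 4, limma adjusted p from 0.0717 to 0.128). *Col5a3* (chromosome 9, 20574494 to 20619511) was at 240, 369 and 520 RPM in reaggregates and at 91.6, 13.8, 265 and 12.4 RPM in flat cultures. Here too flat culture 3 reached the range of the reaggregates, and flat cultures 2 and 4 were lowest. The log2 difference of *Col5a3* was 2.97 (SE 0.73, limma adjusted p = 0.0119). Neither *Col5a1* nor *Col5a3* was called with consecutive reaggregates averaged or against flat cultures 1 and 3 alone.

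Type XI collagen, found in cartilage and as a nucleator of fibres, uses *Col11a1* and *Col11a2*. *Col11a1* (chromosome 3, 113733458 to 113923636) was at 184, 256 and 299 RPM in reaggregates and at 15.2, 8.59, 51.3 and 4.98 RPM in flat cultures 1 to 4. Even the lowest reaggregate stood well above the highest flat culture, flat culture 3. The log2 difference of 4.10 (SE 0.48, limma adjusted p = 2.60e-04) stayed between 3.09 and 5.11 over the 25 alternatives. *Col11a2* (chromosome 17, 34176382 to 34203630) was at 2.97, 15.15 and 21.0 RPM in reaggregates and at 1.27, 0.119, 9.10 and 0.607 RPM in flat cultures. Reaggregates 5 and 6 were the low ones and lay below flat culture 3, so the groups overlapped. Its log2 difference was 2.60 (SE 0.75, limma adjusted p = 0.0243), and the call was lost when any of reaggregates 1 and 2 and flat cultures 1, 2 and 4 was left out (limma adjusted p from 0.0506 to 0.0797).

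*Col27a1* (chromosome 4, 62875038 to 62996025), a fibrillar chain of developing cartilage, was at 1.63, 11.75 and 14.8 RPM in reaggregates and at 0.115, 0, 1.44 and 0.121 RPM in flat cultures 1 to 4. Reaggregates 1 to 4 were far above reaggregates 5 and 6, which were only just above flat culture 3, and the other flat cultures were at 1 read or none. The log2 difference of 3.24 (SE 0.67, limma adjusted p = 0.00561) depended on the pseudocount, at 2.61 with 1 RPM and 4.53 with 0.1 RPM, and against flat cultures 1 and 3 alone the call was lost. *Col24a1*, the remaining fibrillar chain, was at most 1.5 RPM in any library and was not called, except without flat culture 3 (log2 difference 1.07, limma adjusted p = 0.047) and with reaggregates 1 to 4 alone.

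*Col2a1* (chromosome 15, 97806033 to 97835155), the chain of type II collagen that is typical of cartilage, was the only chain down-regulated in reaggregates. It was at 200, 273.5 and 286 RPM in the reaggregates and at 777, 931, 1520 and 1070 RPM in flat cultures 1 to 4. Every reaggregate lay below every flat culture, and the flat cultures with and without the de Bruijn lab label did not separate. The log2 difference was −2.06 (SE 0.20, limma adjusted p = 1.01e-04), between −2.20 and −1.88 over all alternatives. Among all reads on collagen chains, *Col2a1* took 0.847% ± 0.193 (SD, n = 6) in reaggregates and 10% ± 4.76 (SD, n = 4) in flat cultures. Of the 4 chondrocyte markers, *Sox9* and *Comp* exceeded the floor in some library, while *Acan* was 0 in all libraries and *Matn1* was under the floor. Their summed level, mostly *Sox9*, was 153 to 222 RPM in reaggregates and 56.2, 108, 104 and 56.2 RPM in flat cultures 1 to 4, higher in each reaggregate than in any flat culture. *Comp* was at 0 to 2.59 RPM in reaggregates and at 0.345, 30.9, 0.838 and 16.8 RPM in flat cultures 1 to 4, high in the 2 cultures with the de Bruijn lab label alone. The part of these markers in the results for collagen chains was not tested.

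Pairs of chains that share a trimer or a genomic neighbourhood were compared as ratios of RPM per kb of transcript in each library, as a description without a test. The ratio of *Col1a1* to *Col1a2* stayed between 0.529 and 0.738 in all 10 libraries, over which *Col1a2* ranged 9.50-fold. The ratio of *Col5a1* to *Col5a2* was less steady, at 0.497 to 1.22 in reaggregates and 1.11, 1.84, 1.51 and 1.58 in flat cultures 1 to 4. That of *Col11a1* to *Col11a2* ran from 4.31 in flat culture 3 to 47.4 in reaggregate 6 over the 9 libraries in which both chains exceeded the floor, which leaves out flat culture 2, where *Col11a2* was at the value of 1 read. Thus *Col1a1* and *Col1a2* kept a steadier ratio than *Col5a1* and *Col5a2* or *Col11a1* and *Col11a2*.

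*Col3a1* and *Col5a2* lie 24614 bp apart on chromosome 1, on opposite strands. Both were up-regulated, but by different amounts. The ratio of *Col3a1* to *Col5a2* per kb was 1.92 to 2.71 in reaggregates and 1.37, 0.237, 1.68 and 0.237 in flat cultures 1 to 4. In flat cultures 2 and 4 *Col3a1* was therefore the lower gene of the pair per kb, whereas in all reaggregates and in flat cultures 1 and 3 it was the higher one. The log2 difference of *Col5a2* between flat cultures 2 and 4 and flat cultures 1 and 3 was −1.36 (SE 0.46, limma adjusted p = 0.160) and was not called.

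**Figure D3:**
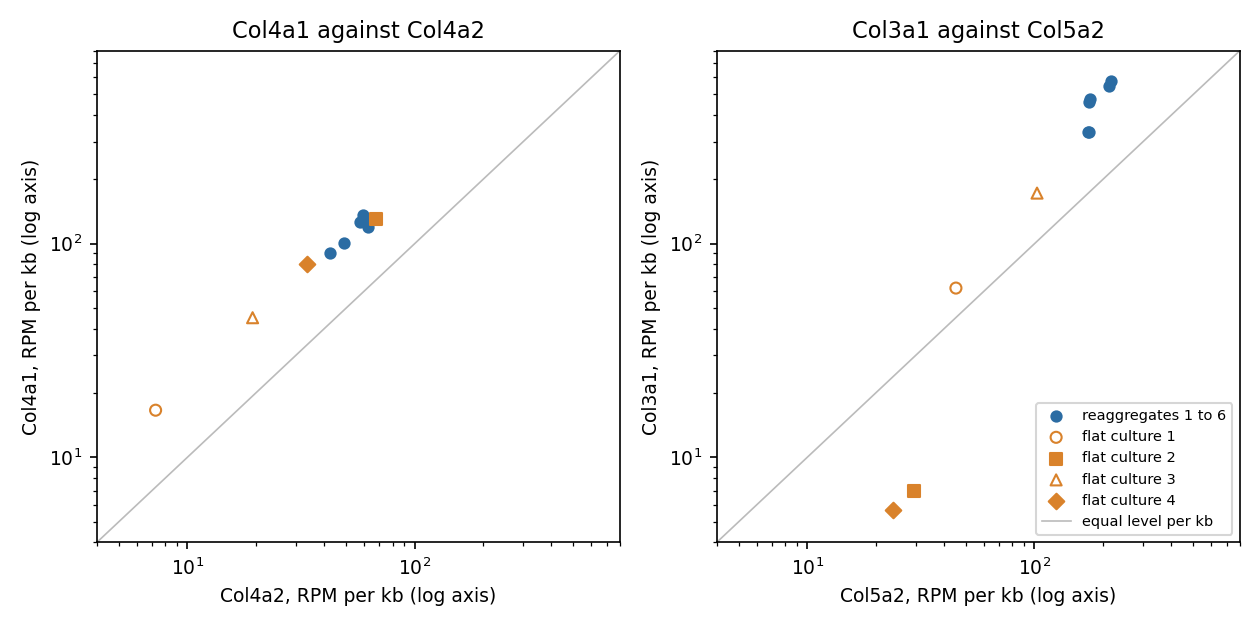
RPM per kb of transcript on log axes for *Col4a1* against *Col4a2* (left) and *Col3a1* against *Col5a2* (right), where each point is 1 library (filled circles, 6 reaggregates; open symbols, flat cultures 1 and 3; filled squares and diamonds, flat cultures 2 and 4) and the grey line marks equal levels. *Col4a1* and *Col4a2* keep a ratio of 1.92 to 2.39 in all libraries, while flat cultures 2 and 4 fall below the line for *Col3a1*, at a ratio of 0.237.

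Of the 6 chains of type IV collagen, the network former of basement membranes, 4 were tested and 2 were up-regulated, *Col4a5* and *Col4a6*, with a class median log2 difference of 1.48. *Col4a5* (chromosome X, 137909928 to 138123778) was at 135, 142 and 181 RPM in reaggregates and at 74.4, 22.3, 84.9 and 26.7 RPM in flat cultures 1 to 4. *Col4a6* (chromosome X, 137599946 to 137908619), which lies head to head with it at a distance of 1308 bp, was at 9.35, 11.45 and 14.0 RPM in reaggregates and at 3.14, 0.358, 5.75 and 0.850 RPM in flat cultures. In both genes all reaggregates exceeded all flat cultures, and flat cultures 2 and 4 were the lowest. The log2 difference was 1.76 (SE 0.34, limma adjusted p = 0.00429) for *Col4a5* and 2.40 (SE 0.47, limma adjusted p = 0.00411) for *Col4a6*. Neither was called with consecutive reaggregates averaged, and *Col4a5* was not called against flat cultures 1 and 3 alone.

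The major chains of the basement membrane showed another pattern. *Col4a1* (chromosome 8, 11198423 to 11312826) was at 600, 812.5 and 903 RPM in reaggregates and at 110, 866, 298 and 531 RPM in flat cultures 1 to 4. *Col4a2* (chromosome 8, 11312805 to 11449287) was at 273, 378 and 401 RPM in reaggregates and at 46.8, 438, 125 and 217 RPM in flat cultures. Flat culture 2 lay within the reaggregate range for *Col4a1* and above it for *Col4a2*, flat culture 4 lay below it for both, and flat cultures 1 and 3 were the low libraries, the reverse of the order seen for *Col3a1*. The log2 differences of 1.13 (SE 0.45, limma adjusted p = 0.0746) for *Col4a1* and 1.19 (SE 0.47, limma adjusted p = 0.0722) for *Col4a2* were not called. Without flat culture 2 both were called, at 1.56 (limma adjusted p = 0.0178) and 1.70 (limma adjusted p = 0.0112), as they were against flat cultures 1 and 3 alone and under quantile normalization. The annotated genes run in opposite directions and overlap by 22 bp, and the sources used here do not state whether strand was used in counting. Per kb, *Col4a1* exceeded *Col4a2* by a ratio between 1.92 and 2.39 in all 10 libraries, a 1.24-fold range, although the genes themselves ranged 8.21-fold and 9.36-fold.

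Type VI collagen forms beaded filaments next to cells from the products of *Col6a1*, *Col6a2* and *Col6a3*, and of the 4 chains of this class 1 was up-regulated. *Col6a1* (chromosome 10, 76171537 to 76188913) was at 1030, 1670 and 1780 RPM in reaggregates and at 840, 371, 1500 and 233 RPM in flat cultures 1 to 4. Its neighbour *Col6a2* (chromosome 10, 76058507 to 76086375) was at 1230, 2245 and 2550 RPM in reaggregates and at 1510, 558, 2410 and 377 RPM in flat cultures. Reaggregates 3 and 4 were the low reaggregates in both genes, and flat culture 3, for *Col6a2* also flat culture 1, overlapped with the reaggregates. The log2 difference was 1.34 (SE 0.44, limma adjusted p = 0.0414) for *Col6a1* and 1.03 (SE 0.48, limma adjusted p = 0.117), not called, for *Col6a2*. The call for *Col6a1* was lost when any library other than flat culture 1 or 3 was left out (limma adjusted p from 0.0507 to 0.132). Without flat culture 3, *Col6a2* was called at 1.49 (limma adjusted p = 0.016).

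*Col6a3* (chromosome 1, 92663435 to 92740529), the large chain of the trimer, was at 1910, 2070 and 2290 RPM in reaggregates and at 773, 1630, 1680 and 964 RPM in flat cultures. All reaggregates exceeded all flat cultures, yet the log2 difference of 0.80 (SE 0.24, limma adjusted p = 0.0280) was below a fold change of 2. *Col6a1* and *Col6a2* kept a ratio per kb of 0.668 to 0.807 in reaggregates and 0.536 to 0.640 in flat cultures. The ratio of *Col6a1* to *Col6a3* was 1.01 to 1.93 in reaggregates and 2.32, 0.486, 1.91 and 0.517 in flat cultures 1 to 4, so *Col6a3* did not vary in parallel with *Col6a1*.

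Collagens of the FACIT class sit on the surface of fibres, and 3 of the 6 chains tested of 8 in the table were up-regulated, *Col12a1*, *Col16a1* and *Col9a3*. *Col12a1* (chromosome 9, 79446798 to 79566638), found along type I fibres, was at 338, 458 and 829 RPM in reaggregates and at 143, 126, 415 and 35.5 RPM in flat cultures 1 to 4. *Col16a1* (chromosome 4, 129725084 to 129776527) was at 178, 221.5 and 328 RPM in reaggregates and at 80.9, 59.4, 210 and 57.8 RPM in flat cultures. In both genes flat culture 3 overlapped with the lower reaggregates and the other flat cultures lay below all reaggregates. The log2 difference was 1.96 (SE 0.54, limma adjusted p = 0.0194) for *Col12a1* and 1.44 (SE 0.33, limma adjusted p = 0.00925) for *Col16a1*.

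*Col9a3* (chromosome 2, 180332495 to 180356894), a chain of the type IX collagen of cartilage, was at 1.63, 4.83 and 6.02 RPM in reaggregates and at 0.230, 0.119, 3.95 and 0.607 RPM in flat cultures. Its trimer partners *Col9a1* and *Col9a2* did not exceed the floor in any library. Its log2 difference was 1.79 (SE 0.54, limma adjusted p = 0.0279), and the call was lost when any of reaggregates 1 to 4 or flat cultures 1, 2 and 4 was left out (limma adjusted p from 0.0556 to 0.08). None of the 3 chains was called with consecutive reaggregates averaged or against flat cultures 1 and 3 alone.

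*Col14a1* (chromosome 15, 55139305 to 55352358) was at 9.94, 12.15 and 47.4 RPM in reaggregates and at 22.1, 0.955, 42.8 and 0.122 RPM in flat cultures 1 to 4. Reaggregates 3 and 4 and flat cultures 1 and 3 were high and flat cultures 2 and 4 were near or under the floor, so the groups overlapped widely. Its log2 difference of 1.79 (SE 1.08, limma adjusted p = 0.220) was not called, and turned to −0.73 against flat cultures 1 and 3 alone. Without flat culture 3 it was called, at 2.78 (limma adjusted p = 0.0421). *Col20a1*, named after its values were seen, was at 11.9 to 14.1 RPM in reaggregates 1 to 4 and at 1.97 and 1.56 RPM in reaggregates 5 and 6. In flat cultures 1 to 4 it was at 0.806, 1.03, 7.72 and 2.14 RPM, so the groups overlapped. Its log2 difference of 1.53 (SE 0.71, limma adjusted p = 0.119) was not called, but it was called as up-regulated at 2.09 without flat culture 3 (limma adjusted p = 0.0322), at 1.90 without reaggregate 6 (limma adjusted p = 0.0485) and at 2.39 with reaggregates 1 to 4 alone (limma adjusted p = 0.0104).

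No chain of the hexagonal network, multiplexin, anchoring fibril and transmembrane classes was up- or down-regulated. *Col8a1* (chromosome 16, 57624371 to 57754850), which forms networks beneath endothelia, was at 59.8, 113 and 173 RPM in reaggregates and at 165, 225, 169 and 173 RPM in flat cultures, a log2 difference of −0.78 (SE 0.30, limma adjusted p = 0.0692). *Col18a1* (chromosome 10, 76514923 to 76629293), the source of endostatin, was at 82.4, 97.0 and 122 RPM in reaggregates and at 33.0, 226, 79.9 and 120 RPM in flat cultures. *Col18a1* had its extremes in the flat cultures, on either side of the reaggregates, and its log2 difference was 0.10 (SE 0.40, limma adjusted p = 0.867). *Col7a1* (chromosome 9, 108855631 to 108886920), which anchors epithelial basement membranes, was at 8.29, 9.40 and 27.1 RPM in reaggregates and at 10, 14.7, 31.1 and 26.8 RPM in flat cultures, and its groups overlapped.

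*Col28a1* (chromosome 6, 7947808 to 8142617) was at 1.67, 3.01 and 7.71 RPM in reaggregates and at 9.78, 3.70, 30.2 and 3.89 RPM in flat cultures, a log2 difference of −1.16 (SE 0.58, limma adjusted p = 0.146) that was called only against flat cultures 1 and 3. *Col17a1*, an epithelial transmembrane chain, did not exceed 1.15 RPM in any library. *Col8a2* was at 0.385, 0.439 and 1.23 RPM in reaggregates and at 0, 0, 0.12 and 0.121 RPM in flat cultures, where it was at 1 read or none. All reaggregates exceeded all flat cultures in *Col8a2*, but at levels of so few reads its log2 difference of 0.93 (SE 0.22, limma adjusted p = 0.0105) was below the fold change of 2. The pseudocount decided this, since with 0.1 RPM *Col8a2* was called at 2.12 (limma adjusted p = 0.00551). *Col15a1*, named after its values were seen, was at 2.50, 6.04 and 10.6 RPM in reaggregates and at 7.36, 29.3, 8.86 and 19.9 RPM in flat cultures. It was not called (log2 difference −1.30, limma adjusted p = 0.0579), but was called as down-regulated without reaggregate 6, flat culture 1 or flat culture 3, each left out in turn (limma adjusted p from 0.0366 to 0.0394). The remaining chains, also named after their values were seen, were *Col6a6*, at 25.2 to 63.8 RPM over all libraries, *Col10a1*, at 2.02 to 7.3 RPM, and *Col19a1* and *Col23a1*, at no more than 0.688 and 0.641 RPM. In all, 18 chains were not called, 12 above 0 and 6 below, with log2 differences from −1.30 to 1.79.

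For the 3 up-regulated chains with the largest log2 differences, the 250 bases before the transcript start are shown, since these chains rose most in the main fit. The place of *Col27a1* depends on the pseudocount of 0.5 RPM. With 1 RPM it was at 2.61, below the 2.97 of *Col5a3* in the main fit. Sequences came from the RefSeq promoter table (GRCm38.p6), which held 33 of the 40 chains, and each matched a single place in NCBIM37. All are on the plus strand, at chr1:45368133-45368382 for *Col3a1*, chr3:113733208-113733457 for *Col11a1* and chr4:62876196-62876445 for *Col27a1*. The stretches of *Col3a1* and *Col11a1* end at the annotated gene start, and that of *Col27a1* lies inside the annotated gene but in no exon. Capitals mark matches to 3 motifs that were searched on both strands and did not overlap. The motif TATAAA is the core of the TATA box. The motif CCAAT is the CCAAT box, which reads ATTGG from the opposite strand. The motif GGGCGG is the core of the GC box.
Col3a1: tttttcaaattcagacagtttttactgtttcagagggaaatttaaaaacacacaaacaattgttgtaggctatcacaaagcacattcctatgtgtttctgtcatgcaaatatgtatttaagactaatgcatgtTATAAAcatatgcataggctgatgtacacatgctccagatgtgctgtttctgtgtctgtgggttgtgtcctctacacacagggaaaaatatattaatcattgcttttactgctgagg
Col11a1: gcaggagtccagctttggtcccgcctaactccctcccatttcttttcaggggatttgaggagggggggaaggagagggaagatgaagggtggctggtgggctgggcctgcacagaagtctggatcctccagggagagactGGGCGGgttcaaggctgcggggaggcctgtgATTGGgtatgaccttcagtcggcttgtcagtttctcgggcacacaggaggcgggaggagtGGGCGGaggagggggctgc
Col27a1: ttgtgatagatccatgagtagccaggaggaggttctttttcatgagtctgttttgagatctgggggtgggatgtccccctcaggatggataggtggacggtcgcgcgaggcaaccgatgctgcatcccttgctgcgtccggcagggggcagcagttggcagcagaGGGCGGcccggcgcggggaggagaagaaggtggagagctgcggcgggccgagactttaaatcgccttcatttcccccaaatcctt
*Col3a1* held TATAAA with its first base 117 bases before the start, in a stretch of 35.2% GC. *Col11a1* held GGGCGG at 110 and 19 bases and CCAAT on the opposite strand at 79 bases before the start, with 62.4% GC. *Col27a1* held GGGCGG at 85 bases before the start, with 59.6% GC. In all 32851 promoters of the table, over windows of the same 250 bases, 12.4% held TATAAA, 33.8% CCAAT and 32.7% GGGCGG on either strand, and the median GC content was 52.4%. No motif was shared by all 3 chains.

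Genes that modify, secrete, crosslink, bind or degrade collagen were examined as 5 lists of 56 symbols, of which 53 were matched in the table and 47 exceeded the threshold. *Mia3*, *Itga10* and *Mmp1a* were not matched by symbol. Of the 47 genes, 10 were up-regulated, where 7.32% of all genes were, and 3 were down-regulated, which is near the 6.53% of all genes. The median log2 difference was 0.27, beside 0.04 for all genes. *Fap* was the only one of the 47 that passed the threshold in reaggregates alone. With consecutive reaggregates averaged 6 were up-regulated, those other than *Plod1*, *Bmp1*, *Adamts2* and *Sparc*, beside 1.84% of all genes. Against flat cultures 1 and 3 alone *Plod1*, *Adamts2* and *Sparc* were not called, at log2 differences of 0.83, 0.58 and 0.36 (limma adjusted p = 0.0324, 0.238 and 0.272). Genes beyond the naming rule, *Mmp14*, *Fap*, *Loxl4*, *Loxl1* and *Lox*, are named after their values were seen.

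Of 17 genes for chain modification and folding tested, 1 was up-regulated, *Plod1*, a lysyl hydroxylase of collagen, a share near the 7.32% of all genes. The median log2 difference of the list was 0.11. *P3h1* and *Plod2*, hydroxylases named after their values were seen, were just short of the fold change of 2, at 0.995 (limma adjusted p = 0.0338) and 0.95 (limma adjusted p = 0.0293). Both were called without reaggregate 5, reaggregate 6 or flat culture 3, *P3h1* at 1.04, 1.05 and 1.30 and *Plod2* at 1.03, 1.004 and 1.28, and *P3h1* also without flat culture 1, at 1.16 (limma adjusted p from 9.93e-04 to 0.0432). *P3h2*, likewise named afterwards, was called without flat culture 3, at 1.66 (limma adjusted p = 0.041). *P4ha3*, also named afterwards, went the other way, at −0.91 (limma adjusted p = 0.031), short of the fold change of 2. It was called as down-regulated without flat culture 1, at −1.15 (limma adjusted p = 0.0128), and against flat cultures 2 and 4 alone, at −1.375 (limma adjusted p = 0.00248). *Plod1* was at 177, 235 and 291 RPM in reaggregates and at 112, 76.3, 144 and 38.5 RPM in flat cultures 1 to 4, a log2 difference of 1.44 (SE 0.31, limma adjusted p = 0.00699). *P4hb*, the shared subunit of prolyl hydroxylase and the gene of highest mean RPM in the list, was at 1580, 1795 and 2220 RPM in reaggregates and at 2910, 1560, 1630 and 1670 RPM in flat cultures. All reaggregates exceeded all flat cultures in *Plod1*, whereas for *P4hb* the groups overlapped, with a log2 difference of −0.03 (SE 0.22, limma adjusted p = 0.927).

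Of 10 genes for secretion and propeptide removal tested, 2 were up-regulated, beside 7.32% of all genes. These were *Bmp1* and *Adamts2*, proteases that cut the C and N propeptides. *Bmp1* was at 242, 546.5 and 617 RPM in reaggregates and at 67.3, 205, 209 and 148 RPM in flat cultures, without overlap, a log2 difference of 1.60 (SE 0.38, limma adjusted p = 0.0100). *Adamts2* was at 29.3, 35.8 and 44.8 RPM in reaggregates and at 14.6, 1.19, 38.7 and 1.21 RPM in flat cultures, where flat culture 3 overlapped with the reaggregates, a log2 difference of 2.50 (SE 0.77, limma adjusted p = 0.0310). This call was lost when any of reaggregates 1 to 4 or flat cultures 2 and 4 was left out (limma adjusted p from 0.0554 to 0.106). *Pcolce*, an enhancer of C propeptide removal, was at 807, 887 and 968 RPM in reaggregates and at 530, 509, 694 and 314 RPM in flat cultures. Its groups did not overlap, but the log2 difference of 0.84 (SE 0.20, limma adjusted p = 0.0110) was below the fold change of 2, and it was called without flat culture 3, at 1.01 (limma adjusted p = 0.00197).

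Crosslinking and assembly was the list with calls in both directions, 1 up and 3 down of 7 genes tested, beside 7.32% and 6.53% of all genes. *Sparc*, which encodes a collagen-binding matrix protein, was at 3360, 3570 and 3660 RPM in reaggregates and at 3210, 1180, 2350 and 923 RPM in flat cultures, a log2 difference of 1.06 (SE 0.32, limma adjusted p = 0.0299). That call was lost when any of reaggregates 1 to 4 or flat cultures 2 and 4 was left out (limma adjusted p from 0.0545 to 0.095). The lysyl oxidase relatives *Loxl3*, *Loxl2* and *Loxl4* were lower in every reaggregate than in any flat culture. *Loxl3* was at 86.6, 95.3 and 99.5 RPM in reaggregates and at 168, 667, 274 and 486 RPM in flat cultures, a log2 difference of −1.88 (SE 0.31, limma adjusted p = 0.00162), whose call was lost with only the reaggregates with IL-3 (−1.84, limma adjusted p = 0.0516). *Loxl2* was at 2.81, 3.60 and 4.57 RPM in reaggregates and at 11.8, 12.2, 10.1 and 11.8 RPM in flat cultures, a log2 difference of −1.53 (SE 0.19, limma adjusted p = 3.81e-04). The 4 flat cultures were close together in *Loxl2* and far apart in *Loxl3*, where flat cultures 2 and 4 were highest. *Loxl4* was at 24, 38.5 and 40.4 RPM in reaggregates and at 86.8, 63.1, 83.2 and 59.0 RPM in flat cultures, a log2 difference of −1.06 (SE 0.19, limma adjusted p = 0.00278), and without reaggregate 3, flat culture 1 or flat culture 3 it was between −1 and −0.96, short of the fold change of 2, as it was against flat cultures 2 and 4 alone, at −0.83. The other members of the family were not called, *Lox* at a log2 difference of 0.17 (limma adjusted p = 0.627) and *Loxl1* at 1.06 (limma adjusted p = 0.0793). *Loxl1* was at 42.9, 78.0 and 103 RPM in reaggregates and at 11.5, 67.6, 39.0 and 48.1 RPM in flat cultures. It was called as up-regulated without flat culture 2, at 1.37 (limma adjusted p = 0.0394), and against flat cultures 1 and 3 alone, at 1.76 (limma adjusted p = 0.033).

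Of 7 collagen receptor genes tested 1 was up-regulated, beside 7.32% of all genes. This was *Mrc2*, an endocytic receptor for collagen, at 884, 1065 and 1080 RPM in reaggregates and 233, 552, 414 and 294 RPM in flat cultures (log2 difference 1.53, SE 0.22, limma adjusted p = 8.15e-04). Of 6 collagen-degrading proteases tested 5 were up-regulated, beside 7.32% of all genes, with a median log2 difference of 3.01. However, 1 of the 5, *Fap*, entered the test through its values in reaggregates alone. *Mmp2*, a gelatinase, was at 2150, 2300 and 2390 RPM in reaggregates and at 244, 317, 518 and 179 RPM in flat cultures. *Mmp14*, a membrane-bound collagenase, was at 1810, 2015 and 2050 RPM in reaggregates and at 225, 241, 431 and 137 RPM in flat cultures. Both proteases were far higher in all reaggregates than in any flat culture, with log2 differences of 2.97 (SE 0.25, limma adjusted p = 5.79e-05) for *Mmp2* and 3.05 (SE 0.26, limma adjusted p = 5.79e-05) for *Mmp14*.

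*Mmp13*, a collagenase of bone and cartilage, was at 32.8, 101 and 133 RPM in reaggregates and at 1.15, 0.358, 3.59 and 0.121 RPM in flat cultures. *Mmp9*, a gelatinase of bone resorption, was at 11.3, 26.75 and 40.4 RPM in reaggregates and at 0.921, 0, 5.99 and 0.121 RPM in flat cultures. Reaggregates 5 and 6 were the lowest reaggregates and flat culture 3 the highest flat culture in both genes, without overlap. The log2 difference was 5.78 (SE 0.57, limma adjusted p = 1.04e-04) for *Mmp13* and 4.15 (SE 0.65, limma adjusted p = 0.00129) for *Mmp9*, on a scale that understates such low flat values. *Fap* was at 0.434, 1.43 and 4.09 RPM in reaggregates, and in flat cultures it was listed at 0 except for 0.121 RPM in flat culture 4, the value of 1 read. The log2 difference of *Fap*, 1.92 (SE 0.41, limma adjusted p = 0.00663), therefore depended on the pseudocount and was 3.64 with 0.1 RPM and 1.32 with 1 RPM.

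Within the reaggregates, the 3 cultures with IL-3 were compared with the 3 without it. By limma 0 of 34 chains were called, where 0% of all 16933 genes were, and 0 chains had an unadjusted p of at most 0.05, where 0.402% of all genes, 68, did. The log2 differences of the chains ran from −0.19 (SE 0.83) in *Col11a2* to 0.42 (SE 0.26) in *Col8a2*, whose p of 0.149 by limma was the lowest (adjusted p = 1, n = 3 and 3). In *Col8a2* the 3 cultures with IL-3 were at 1.23, 0.441 and 0.637 RPM and their consecutive partners without IL-3 at 0.385, 0.436 and 0.434 RPM, values of a few reads. *Col1a1* was at 7090, 6930 and 5400 RPM in reaggregates 2, 4 and 6 and at 6820, 7190 and 6360 RPM in reaggregates 1, 3 and 5. *Col3a1* was at 3200, 2640 and 1850 RPM with IL-3 and at 3030, 2570 and 1860 RPM without. In *Col3a1* consecutive reaggregates were closer to each other than to those with the same treatment. The number of chains higher with IL-3 was 28 of 34 in reaggregate 2 against 1, 21 in 4 against 3 and 12 in 6 against 5, compared with 52.6%, 50.2% and 52.4% of all genes. The 4 chains that were higher in all 3 pairs, *Col4a5*, *Col5a2*, *Col8a2* and *Col9a3*, are close to the share of all genes, 12.7%. With consecutive reaggregates as a block 0 chains were called, and none of the 34 reached 0.05 in the limma p before adjustment, where 3.33% of all genes, 564, did. The block narrowed the SE to 0.15 for *Col11a2* and 0.23 for *Col8a2*, with the same log2 differences.

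Reaggregates 5 and 6 stood apart from reaggregates 1 to 4 in several chains. Both were below the other 4 in 18 of 34 chains, compared with 33.2% of all genes, among them *Col1a2*, *Col3a1*, *Col11a1*, *Col11a2* and *Col27a1*. They were above the other 4 in 4 chains, compared with 16.6% of all genes. Without them 16 chains were up-regulated, where 11.2% of all genes were, and 14 of these were among the 15.

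The flat cultures came with and without a source label, and several chains differed between them. According to the study's text, the cells in flat culture had been kept by the Medvinsky or the de Bruijn group. It also puts the variance between cell sources level with the variance between passage numbers. Passage number was not used here, so its part in these differences was not tested. Between flat cultures 2 and 4, labelled de Bruijn lab, and flat cultures 1 and 3, 4 of 34 chains were called lower in the labelled cultures, where 3.87% of all genes were, and 0 were called higher, where 1.82% of all genes were. These 4 were *Col14a1* (log2 difference −5.04, SE 0.58, limma adjusted p = 0.0133, n = 2 and 2), *Col3a1* (−4.02, SE 0.52, limma adjusted p = 0.0182), *Col5a3* (−3.53, SE 0.53, limma adjusted p = 0.0268) and *Col4a5* (−1.68, SE 0.27, limma adjusted p = 0.0323). The chains' median log2 difference was −0.97 beside −0.17 for all genes. Quantile normalization moved these medians to −0.77 for the chains and 0.05 for all genes. Both labelled cultures were below both others in 17 chains and above both in 8, compared with 34.1% and 18.2% of all genes. *Col4a1* and *Col4a2* were among the 8, with log2 differences of 1.90 (SE 0.56, limma adjusted p = 0.123) and 2 (SE 0.58, limma adjusted p = 0.119) that were not called. With any of the 4 flat cultures left out, 0 chains and 0 of all genes were called by limma. Without the expression threshold 0 chains were called, where 0.279% of all genes were called higher and 0.534% lower, and under quantile normalization 1 was called higher and 7 lower, where 3.82% and 4.72% of all genes were.

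Adipocyte markers other than *Adipoq* differed along the same line. All 4 adipocyte markers exceeded the floor in at least 1 library, and their summed level was 61.05 to 92.25 RPM in reaggregates and 80.7, 832, 106 and 1007 RPM in flat cultures 1 to 4. *Fabp4*, at 435 and 711 RPM, and *Pparg*, at 395 and 295 RPM, made up nearly all of the sum in flat cultures 2 and 4, where *Plin1* was at 1.43 and 1.21 RPM. *Adipoq*, a marker of mature fat cells, was at 0, 0.358, 0.24 and 0.121 RPM in flat cultures 1 to 4. In reaggregates it was at 0.108 to 0.768 RPM. The part of these genes in the results for collagen chains was not tested. Flat culture 3 was the highest flat culture in 24 of 34 chains, compared with 39.5% of all genes, and flat culture 4 the lowest in 14, compared with 23.6%. Against flat cultures 2 and 4 alone 17 chains were up-regulated, all 15 and *Col6a2* and *Col14a1*, where 15.2% of all genes were.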

How the data were processed

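RNA-seq libraries of OP9 cells had been sequenced on an Illumina HiSeq as single-end reads of 50 bases. The authors aligned them with TopHat 1.2.0 and Bowtie to NCBI37/mm9 in GeneProf, assigned them to Ensembl genes, divided reads with several positions among genes in proportion to unique reads, and deposited RPM per gene and library. Of values of at most 20 reads, 36.9% to 39.3% per library were whole multiples of 1 read, within the rounding of deposited values to 3 digits, so no count test was run. The authors' deposited log2 fold change and adjusted p-value from DESeq were not used. Expression was compared as log2(RPM + 0.5), without covariates, in genes that exceeded 0.5 RPM in 1 or more libraries. The tool was limma 3.58.1 (R 4.3.3) with empirical Bayes moderation and a trend of variance on mean, checked on simulated data. The simulated libraries were independent, without the likeness of consecutive reaggregates, so the check does not cover the effect of that likeness on p-values. IL-3 was compared within reaggregates and the source label within flat cultures. Levels between genes used annotated transcript lengths. Python 3.11.15 and matplotlib 3.10.9 made the figures.

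Named with values per library were the chains called between reaggregates and flat cultures, the most abundant chain of each class, chains called in another comparison, partner and neighbour chains above the threshold, and from each gene list the 2 largest rises and falls among called genes and the most abundant gene. Genes outside this rule are marked where they appear. Members, classes, gene lists and marker lists were chosen with earlier results of these data known. Alternatives covered pseudocount, threshold, scaling, trend, blocks, averaged or left-out libraries, and subsets of reaggregates and flat cultures, of which reaggregates 1 to 4 alone was added after the values were seen.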

Additional observations from a re-analysis of the deposited data

Results flagged for a closer look

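Among 114 groups of 4 or 6 values examined, 12 held a library far from the rest of its group, and 7 of these 12 were in flat culture 3. The cut-off assumes independent, normally distributed values. These are RPM of related genes, some with zeros, and some genes were chosen after their values were seen, so no rate by chance is given. Flat culture 3 was highest in *Col5a1*, at 1300 RPM where the others reached 455 RPM, and in *Col16a1*, at 210 against 80.9 RPM. It was also highest in *Col11a2*, at 9.10 against 1.27 RPM, *Col9a3*, at 3.95 against 0.607 RPM, and *Col27a1*, at 1.44 against 0.121 RPM. *Mmp9* reached 5.99 RPM there and 0.921 RPM elsewhere, and *Col24a1*, chosen after its values were seen, at 0.48 RPM, about 4 reads, against at most 0.00297 RPM. In each of these genes flat culture 3 was the flat culture nearest to the reaggregates.

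Flat culture 1 had the highest *P4hb* of the flat cultures, at 2910 RPM against at most 1670 RPM in the others. Flat culture 2 had the highest *Col8a1*, at 225 RPM against at most 173 RPM. *Fap* was at 0.121 RPM in flat culture 4, the value of 1 read, and listed at 0 in the others. Among reaggregates, *Col8a2* was highest in reaggregate 2, at 1.23 RPM against at most 0.637 RPM, and *Loxl3* was lowest in reaggregate 1, at 86.6 RPM against at least 94.7 RPM.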

How the results depend on the processing

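The 15 up-regulated chains became 9 without the expression threshold, 7 against flat cultures 1 and 3 alone, and 3 with consecutive reaggregates averaged, with only the reaggregates without IL-3 and with only those with IL-3. Against flat cultures 2 and 4 alone, with as many libraries as against 1 and 3, the count was 17, and leaving out each library gave 11, without reaggregate 1 or 2 or flat culture 4, to 19, without flat culture 3, where 5.75%, 5.66%, 4.52% and 12.5% of all genes were up-regulated. Down-regulated chains numbered 2 in place of 1 with a threshold of 5 RPM, against flat cultures 2 and 4 alone and with reaggregates 1 to 4 alone, where *Col15a1* was added each time, and 2 against flat cultures 1 and 3 alone, where *Col28a1* was added. Of all genes, 7.78%, 10.5%, 6.9% and 6.17% were down-regulated in these settings. Leaving out each library gave 1 to 2, with 2 without reaggregate 6, flat culture 1 or flat culture 3. Of all genes, 6.63%, 6.79% and 8.99% were down-regulated without these libraries in turn. The 4 chains that differed between flat cultures became 0 without the threshold, 8 under quantile normalization and 0 to 0 with each flat culture left out, where a lone culture is assumed to vary like the others. The count of 10 up-regulated processing and receptor genes became 6 with consecutive reaggregates averaged and with only the reaggregates without or with IL-3, 15 against flat cultures 2 and 4, where 15.2% of all genes were up-regulated, 13 with the replicate block, where 11.1% were, and 8 to 14 with each library left out, where 4.52% to 12.5% were. Against flat cultures 1 and 3 alone it was 10, 7 of them shared, where 3.7% of all genes were up-regulated. The log2 ratio of summed collagen RPM was 1.27 and became 1.91 against flat cultures 2 and 4 alone and 0.84 against 1 and 3 alone, and with each library left out it ran from 1.05 without flat culture 4 to 1.73 without flat culture 3. The sum uses no threshold, and trend and block do not enter it.

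The replicate numbers 1 to 4 occur in both groups, but the deviations of same-numbered libraries from their group means had correlations across genes from −0.213 to 0.155, with 1 of 4 over 0.1, so the numbers were not taken to pair samples. A replicate block gave 15 up-regulated chains, 14 of them shared, and 2 down-regulated chains, where 11.1% and 6.82% of all genes were. Over all genes it gave 1885 up-regulated genes in place of 1239, but numbers 5 and 6 occur in reaggregates alone, so that under the block the difference rests on reaggregates 1 to 4, which without a block gave 1898. Among all genes, other settings gave 312 up- and 429 down-regulated with consecutive reaggregates averaged, 345 and 474 without IL-3, 277 and 360 with IL-3, 2579 and 1775 against flat cultures 2 and 4, and 627 against flat cultures 1 and 3. The setting of reaggregates 1 to 4 alone was chosen after the values were seen. Leaving out flat culture 3 gave 2121, and leaving out flat culture 4 gave 766.

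Signs turned under at least 1 alternative for 4 of the 34 chains and 13 of the 47 other genes. At the main settings with all libraries 0 of these were called, but some were called under alternatives. *Pcolce2*, at −0.06 in the main fit, was called as up-regulated against flat cultures 2 and 4 alone. Against flat cultures 1 and 3 alone it was called as down-regulated, and *Creb3l1* as up-regulated. Values are given for the others that are named in the text. The log2 difference of *Col10a1* was −0.23 and became 0.15 with the replicate block and with reaggregates 1 to 4, and 0.27 against flat cultures 1 and 3. *Col6a6* became −0.12, *Col18a1* −0.74 and *P4hb* 0.19 against flat cultures 2 and 4, and *Col14a1* −0.73 against flat cultures 1 and 3. *P4hb* became 0.0018 when rescaled without the 100 most abundant genes. With each library left out *Col18a1* ran from −0.39 to 0.53 and *P4hb* from −0.12 to 0.18. *Lox* became −0.040 against flat cultures 2 and 4, and ran from −0.0016 to 0.36 with each library left out. *P3h2* became −0.30 against flat cultures 1 and 3. *Col10a1*, *Col6a6*, *Lox*, *P3h2*, *Pcolce2* and *Creb3l1* were named after their values were seen. The cause of the changes given here was not tested. A tally of 1426 values of single genes under the alternatives left out some of the 13 other genes whose signs turned. In this tally 1223 values kept their direction and side of the threshold, 139 were no longer called, 49 became called and 15 turned. For IL-3, 0 chains were called under every alternative run. Depth limits the chains near 0.318 to 0.408 RPM, the floor of 3 reads.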
